A study of Mus musculus with 24 samples.

Results

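Lungs of mice that received both remote ischemic preconditioning and pirfenidone around an exposure to diesel exhaust were compared with lungs of mice that received the exhaust alone. The first group is labelled RIC+DE+PFD and the second DE, each with 3 libraries, so that 6 of the 24 libraries of the series enter this comparison. They were chosen by their labels alone. RIC+DE+PFD library 1 carries a March batch date, whereas RIC+DE+PFD libraries 2 and 3 and the 3 DE libraries carry October dates, and results are therefore given with and without that library.

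The libraries came from male C57BL/6 mice with a labelled age of 20 weeks; the mice were obtained at 6 weeks, weighing 23 g, and interventions began at 8 weeks. DE mice breathed exhaust for 30 min per day, 5 days per week, for about 8 weeks, which the study uses as a model of pulmonary fibrosis. RIC+DE+PFD mice had the same exposure. Before it, blood flow to the left leg was blocked and released in 3 cycles of 5 min ischemia and 5 min reperfusion, on 3 days per week for 4 weeks. Pirfenidone was added as an oral daily dose of 300 mg/kg, 6 days a week, dissolved in 0.5% carboxymethylcellulose. DE mice are not labelled as given this vehicle, so that drug and vehicle cannot be told apart, and with both interventions in the same mice neither can conditioning and drug be told apart in this comparison alone. Beside these, 3 libraries each of DE+PFD (exhaust and pirfenidone), RIC+DE (preconditioning and exhaust) and C (healthy controls) serve below to place the levels. The labels do not say that libraries of a group come from separate animals, so the p-values measure the spread between libraries.

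In pulmonary fibrosis, injured alveoli are replaced by collagen-rich matrix laid down by fibroblasts, and transforming growth factor beta (TGF-beta), released from its latent form by integrins on epithelial cells, is the best known driver of that response. Pirfenidone is an oral antifibrotic drug. Remote ischemic conditioning is the procedure by which short episodes of ischemia in a limb protect a distant organ, and signals carried by blood and nerves are thought to link limb and organ.

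Levels are given as CPM (a gene's counts scaled to library size, with edgeR's TMM factors), and differences as log2 fold changes of RIC+DE+PFD minus DE with their standard error (SE). The total counts were 8885406, 6920161 and 5700391 in DE 1 to 3 and 12224106, 11298160 and 9172489 in RIC+DE+PFD 1 to 3. RIC+DE+PFD 1 stood apart from all other libraries: 39.6% of its counts lay in its 100 top genes (18.1% to 29.7% in the other 23), its TMM factor was 0.638 (0.922 to 1.16) and its score on the first principal component was 121 (-62.2 to 22.4). Across its genes, the deviation from the median of all libraries had a Spearman correlation with exon length of -0.549, against -0.307 to 0.0658 in the 5 other libraries compared here. The markers of lung (Sftpc, Sftpb, Ager, Scgb1a1, Foxj1, Cdh5 and Marco) were present in all 6 libraries, with a summed level of 57964 to 95406 CPM in DE, 240467 CPM in RIC+DE+PFD 1, and 73157 and 70878 CPM in RIC+DE+PFD 2 and 3.

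With all libraries in the fit, no gene differed between RIC+DE+PFD and DE at a Benjamini-Hochberg adjusted p under 0.05 in edgeR's quasi-likelihood test, 0% of the 17490 genes tested. At an unadjusted p under 0.05, 700 genes were higher (4.00%) and 965 lower (5.52%), and DESeq2 called 16 higher and 53 lower. The median log2 fold change was 0.04, with 54.2% of genes above 0 and 45.8% below, and without RIC+DE+PFD 1 it was -0.02, with 47.1% above and 52.9% below. Without RIC+DE+PFD 1, edgeR called 5 genes higher (0.0284%) and 2 lower (0.0114%) of 17598 tested, together 0.0398%, with 1306 (7.42%) and 1149 (6.53%) at the unadjusted level. These 7 calls also depended on the other libraries: none was left when RIC+DE+PFD 2, DE 1 or DE 3 was dropped as well, 1 when RIC+DE+PFD 3 was dropped, and 42 genes passed when DE 2 was dropped. With RIC+DE+PFD 1 kept, dropping DE 2 gave 36 genes and dropping any other library but RIC+DE+PFD 1 gave 0.

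In each of the 5 genes that rose in the fit without RIC+DE+PFD 1, library 1 lay within or below the DE range. Hspa2, a member of the HSP70 chaperone family, stood at 16.9, 27.4 and 23.0 CPM in DE 1 to 3 and at 16.7, 47.1 and 43.2 CPM in RIC+DE+PFD 1 to 3. It rose by 1.00 ± 0.16 (log2, SE, adjusted p = 0.0306 in edgeR) without library 1, against 0.64 ± 0.30 (adjusted p = 0.515) with it. Both October libraries lay above every DE library and library 1 below every one.

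Crim1, a transmembrane protein that binds bone morphogenetic proteins, was at 72.3, 87.5 and 90.2 CPM in DE and at 35.9, 189 and 175 CPM in RIC+DE+PFD, a rise of 1.12 ± 0.18 without library 1 (edgeR adjusted p = 0.0306). Library 1 held less Crim1 than any other library of these 2 groups. Peli3, an E3 ubiquitin ligase of the Pellino family that acts in Toll-like receptor signalling, was at 3.82, 2.98 and 4.91 CPM in DE and at 4.36, 9.90 and 10.2 CPM in RIC+DE+PFD, and rose by 1.36 ± 0.23 without library 1 (edgeR adjusted p = 0.0413). Tmem200b, a transmembrane protein, was at 13.4, 16.1 and 16.8 CPM in DE and at 15.4, 33.8 and 34.5 CPM in RIC+DE+PFD, a rise of 1.14 ± 0.20 (edgeR adjusted p = 0.0413). For both genes library 1 fell among the DE libraries.

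Adgra2, an adhesion G protein-coupled receptor of vessel-forming endothelium, was at 39.0, 40.7 and 46.7 CPM in DE and at 20.4, 96.5 and 70.8 CPM in RIC+DE+PFD. It rose by 0.98 ± 0.17 without library 1 (edgeR adjusted p = 0.0413), and library 1 was again the lowest of the 6. In healthy C lungs Adgra2 was at 70.9, 61.6 and 52.9 CPM and Crim1 at 201, 106 and 106 CPM, so that every DE library lay below the healthy range for both genes. RIC+DE+PFD 2 and 3 lay within that range for Crim1 and at its top or above it for Adgra2. The top of both ranges was C 1, a March library. RIC+DE+PFD 2 and 3 lay above the October libraries C 2 and C 3 for both genes. Hspa2 and Tmem200b were higher in RIC+DE+PFD 2 and 3 than in all C libraries, where Hspa2 reached 34.3 CPM and Tmem200b 25.9 CPM. Neither difference from C passed the test (adjusted p = 0.169 for each in edgeR).

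The 2 genes that fell did so in every RIC+DE+PFD library. Sh3kbp1, an adaptor protein that links receptor tyrosine kinases to endocytosis, was at 66.0, 52.0 and 50.7 CPM in DE and at 31.9, 30.0 and 27.1 CPM in RIC+DE+PFD. It fell by 0.99 on the log2 scale (SE 0.16, edgeR adjusted p = 0.0306) without library 1, and the difference was -0.87 ± 0.16 with it (adjusted p = 0.102). Cttnbp2, a cortactin-binding protein of the actin cytoskeleton, was at 9.07, 10.1 and 10.2 CPM in DE and at 4.23, 4.00 and 2.07 CPM in RIC+DE+PFD, a difference of -1.67 ± 0.28 without library 1 (edgeR adjusted p = 0.0394) and of -1.49 ± 0.27 with it (adjusted p = 0.101). No RIC+DE+PFD library overlapped DE for either gene. Among all genes, 5.56% lay wholly above and 6.40% wholly below DE in the 3 RIC+DE+PFD libraries, and 17.7% and 15.4% in libraries 2 and 3 alone.

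**Figure D1:**
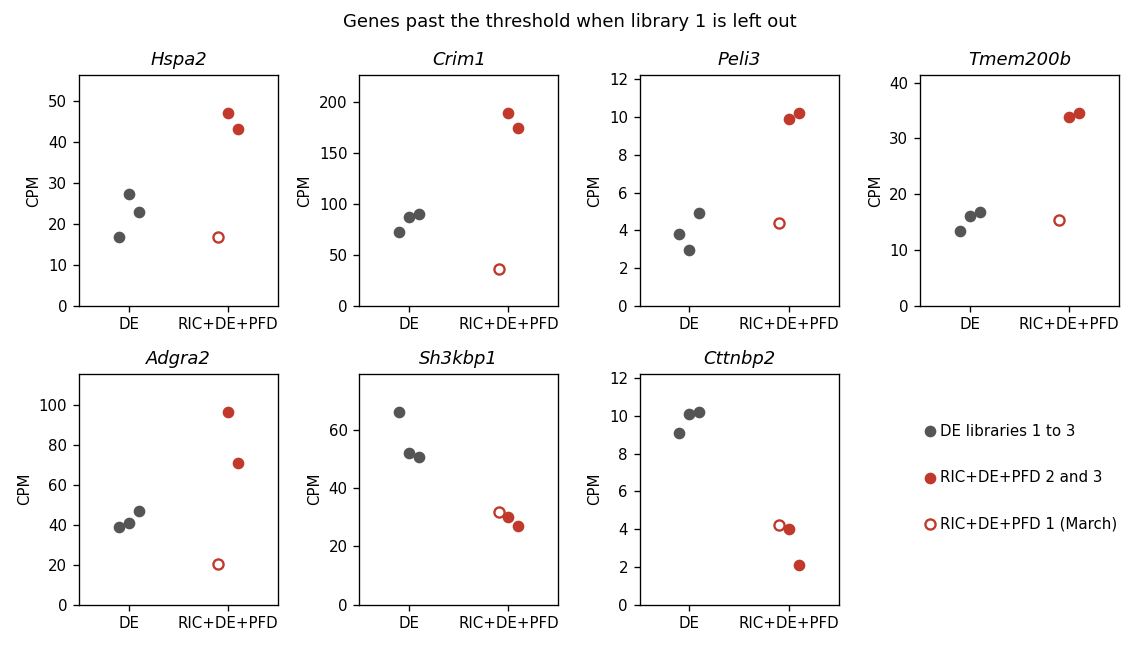
CPM (linear axis from 0) of the 7 genes past the threshold without RIC+DE+PFD library 1, 1 point per library; grey points are DE 1 to 3, filled red points RIC+DE+PFD 2 and 3, and the open red point RIC+DE+PFD 1. For Sh3kbp1 and Cttnbp2 all 3 RIC+DE+PFD libraries lie below DE, whereas for the other 5 genes only libraries 2 and 3 lie above it.

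Several further genes separated the groups in all 6 libraries without passing the test in either fit. Abcg3, a transporter of the ABC family, was at 24.7, 15.8 and 13.9 CPM in DE and at 5.64, 7.17 and 7.37 CPM in RIC+DE+PFD, a difference of -1.37 ± 0.23 over all libraries (edgeR adjusted p = 0.0889) and -1.34 ± 0.25 without library 1 (adjusted p = 0.0505). Inpp4b, a phosphatase of phosphoinositide signalling, was at 43.8, 22.7 and 27.9 CPM in DE and at 9.75, 13.3 and 12.8 CPM in RIC+DE+PFD, with -1.35 ± 0.23 (edgeR adjusted p = 0.0889) and -1.29 ± 0.25 (adjusted p = 0.0530). The values of both genes changed little with library 1, and both were called when October libraries were fitted alone.

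On the higher side, Mief2, a receptor for the mitochondrial fission machinery, was at 16.7, 16.7 and 14.9 CPM in DE and at 28.7, 24.4 and 30.5 CPM in RIC+DE+PFD, a difference of 0.78 ± 0.18 over all libraries (edgeR adjusted p = 0.159). Srp54a, a subunit of the signal recognition particle, was at 1.75, 2.53 and 2.28 CPM in DE and at 9.75, 6.27 and 7.95 CPM in RIC+DE+PFD, a difference of 1.71 ± 0.39 (edgeR adjusted p = 0.159). The mouse genome holds near-identical copies of Srp54a, so its counts are uncertain. Mapk8ip1, a scaffold of JNK signalling (0.76 ± 0.18), Tm7sf3 (0.57 ± 0.15) and Ripk4, a kinase of epithelial differentiation (0.58 ± 0.15), likewise lay above DE in all 3 RIC+DE+PFD libraries.

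Fitting the October libraries alone gave 25 genes higher (0.143%) and 16 lower (0.0915%) of 17477, and the 7 genes above were among these 41. Others in this set, picked after their values were seen, were Cys1, a protein of the primary cilium (22.3, 27.0 and 23.7 CPM in DE, 97.9 and 88.2 CPM in RIC+DE+PFD 2 and 3), Nptx1, a neuronal pentraxin (10.6, 7.60 and 11.1 CPM in DE, 30.2 and 23.7 CPM), and Wee1, the kinase that restrains entry into mitosis (6.66, 11.6 and 8.60 CPM in DE, 30.5 and 22.2 CPM). On the lower side were St6galnac3, a sialyltransferase (44.6, 32.3 and 36.7 CPM in DE, 11.1 and 12.7 CPM), and Acoxl, a relative of acyl-CoA oxidases (85.2, 96.1 and 91.6 CPM in DE, 40.5 and 35.5 CPM). In the fit of 23 libraries none of these 5 passed, with adjusted p from 0.0741 for Nptx1 to 0.126 for Wee1.

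The study uses the exposure as a model of fibrosis, in which matrix accumulates, and the matrix lists held no member past the threshold in either fit. Of 24 fibrillar collagen and matrix genes, 12 lay above and 12 below 0 without library 1, with a median of 0.06 against -0.02 over all genes tested; the median was -0.18 with library 1, against 0.04. Leaving out DE 1 as well gave a median of 0.23, and DE 2 as the only DE library gave 0.57, with 20 of 24 above 0. At an unadjusted p under 0.05 without library 1, 3 members were higher and 1 lower, beside 7.42% and 6.53% of all genes. Col1a1, the main chain of collagen I, was at 312, 179.9 and 351 CPM in DE and at 70.9, 211 and 255 CPM in RIC+DE+PFD, and Col3a1 of collagen III at 495, 270.3 and 517 CPM and at 176, 314 and 306 CPM. RIC+DE+PFD 2 and 3 fell between the DE libraries for both, and library 1 below all 3. The differences without library 1 were -0.28 ± 0.36 for Col1a1 (edgeR adjusted p = 0.772) and -0.48 ± 0.36 for Col3a1 (adjusted p = 0.596).

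Among the other matrix genes, Col8a1, a short-chain collagen, was at 9.29, 8.35 and 7.02 CPM in DE and at 2.69, 13.2 and 19.0 CPM in RIC+DE+PFD. Tnc, tenascin C of provisional matrix, was at 29.2, 10.6 and 23.3 CPM in DE and at 2.18, 10.2 and 11.1 CPM. The values without library 1 were 0.94 ± 0.26 for Col8a1 and -1.01 ± 0.41 for Tnc, with edgeR adjusted p of 0.139 and 0.295. For Tnc the groups overlapped, DE 2 lying between RIC+DE+PFD 2 and 3. Fn1, fibronectin, was at 265, 215 and 279.5 CPM in DE and at 88.2, 350.4 and 302 CPM.

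The 22 elastic fibre and crosslinking genes had a median of 0.05 without library 1 (-0.02 also without DE 1 or RIC+DE+PFD 2) and -0.10 with it. In libraries 2 and 3, 6 members lay wholly above DE and 6 wholly below, beside 17.7% and 15.4% of all genes. The lower ones included lysyl oxidases, the enzymes that crosslink collagen and elastin: Lox was at 27.3, 29.4 and 41.2 CPM in DE and at 17.4, 16.9 and 23.4 CPM in RIC+DE+PFD, below DE in all 3 libraries (-0.71 ± 0.26 without library 1, edgeR adjusted p = 0.240). Loxl2 was at 18.6, 13.1 and 23.9 CPM in DE and at 5.26, 12.8 and 12.3 CPM. Eln, elastin itself, overlapped, at 456, 169.6 and 363 CPM in DE and at 128, 117 and 200.4 CPM (-1.07 ± 0.50, adjusted p = 0.355). The higher ones included latent TGF-beta binding proteins: Ltbp4 was at 568, 515 and 680.5 CPM in DE and at 169.9, 1074 and 1106 CPM (0.88 ± 0.22 without library 1, edgeR adjusted p = 0.125), and Ltbp2 at 76.7, 54.2 and 83.9 CPM and at 22.8, 137 and 125 CPM (0.86 ± 0.24, adjusted p = 0.139). For both Ltbp genes library 1 was the lowest of the 6.

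Of the 23 matrix proteases and inhibitors none passed, with medians of -0.11 without library 1 and -0.07 with it. Mmp28, an epithelial metalloprotease, was at 20.8, 21.9 and 20.5 CPM in DE and at 12.7, 34.3 and 42.0 CPM in RIC+DE+PFD (0.84 ± 0.19 without library 1, edgeR adjusted p = 0.0984). Timp3, a matrix-bound inhibitor of metalloproteases, was at 478, 764 and 756 CPM in DE and at 385, 1079.6 and 1103 CPM (0.70 ± 0.24, adjusted p = 0.215). Both were higher in libraries 2 and 3 than in every DE library, and lower in library 1.

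The TGF-beta pathway list had 22 genes tested, of which 17 lay above 0 without library 1, with a median of 0.18 (0.03 with it). In libraries 2 and 3, 11 lay wholly above DE and 1 wholly below, beside 17.7% and 15.4% of all genes. Of the ligands, Tgfb1 was at 143, 97.5 and 118 CPM in DE and at 48.5, 92.6 and 116 CPM in RIC+DE+PFD, and overlapped (-0.21 ± 0.18, edgeR adjusted p = 0.635). Of the activators, Itgb6, the beta chain of the integrin that releases TGF-beta on epithelium, was at 39.5, 53.8 and 53.5 CPM in DE and at 35.4, 21.7 and 24.1 CPM, below DE in all 3 libraries. Its difference was -1.11 ± 0.26 without library 1 (edgeR adjusted p = 0.103), and it was called with October libraries alone (adjusted p = 0.0438). Itgb6 was at 40.0 to 45.2 CPM in healthy lungs.

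Of the receptors and signal carriers, Eng, a co-receptor of endothelium, was at 696, 626 and 712 CPM in DE and at 585, 934 and 968 CPM in RIC+DE+PFD. Smad4, the common partner of receptor-activated Smads, was at 50.3, 50.5 and 50.4 CPM in DE and at 61.9, 75.3 and 64.8 CPM, above DE in all 3 libraries and near the 59.6 to 74.9 CPM of healthy lungs (0.46 ± 0.11 without library 1, edgeR adjusted p = 0.116). Of the targets, Ccn2, connective tissue growth factor, was at 122, 172 and 189 CPM in DE and at 115, 301 and 313 CPM (0.92 ± 0.23, adjusted p = 0.125), so that library 1 was the lowest of the 6 and libraries 2 and 3 the highest. Tgfbi was at 100.3, 69.4 and 85.8 CPM in DE and at 91.3, 117 and 139.9 CPM.

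**Figure D2:**
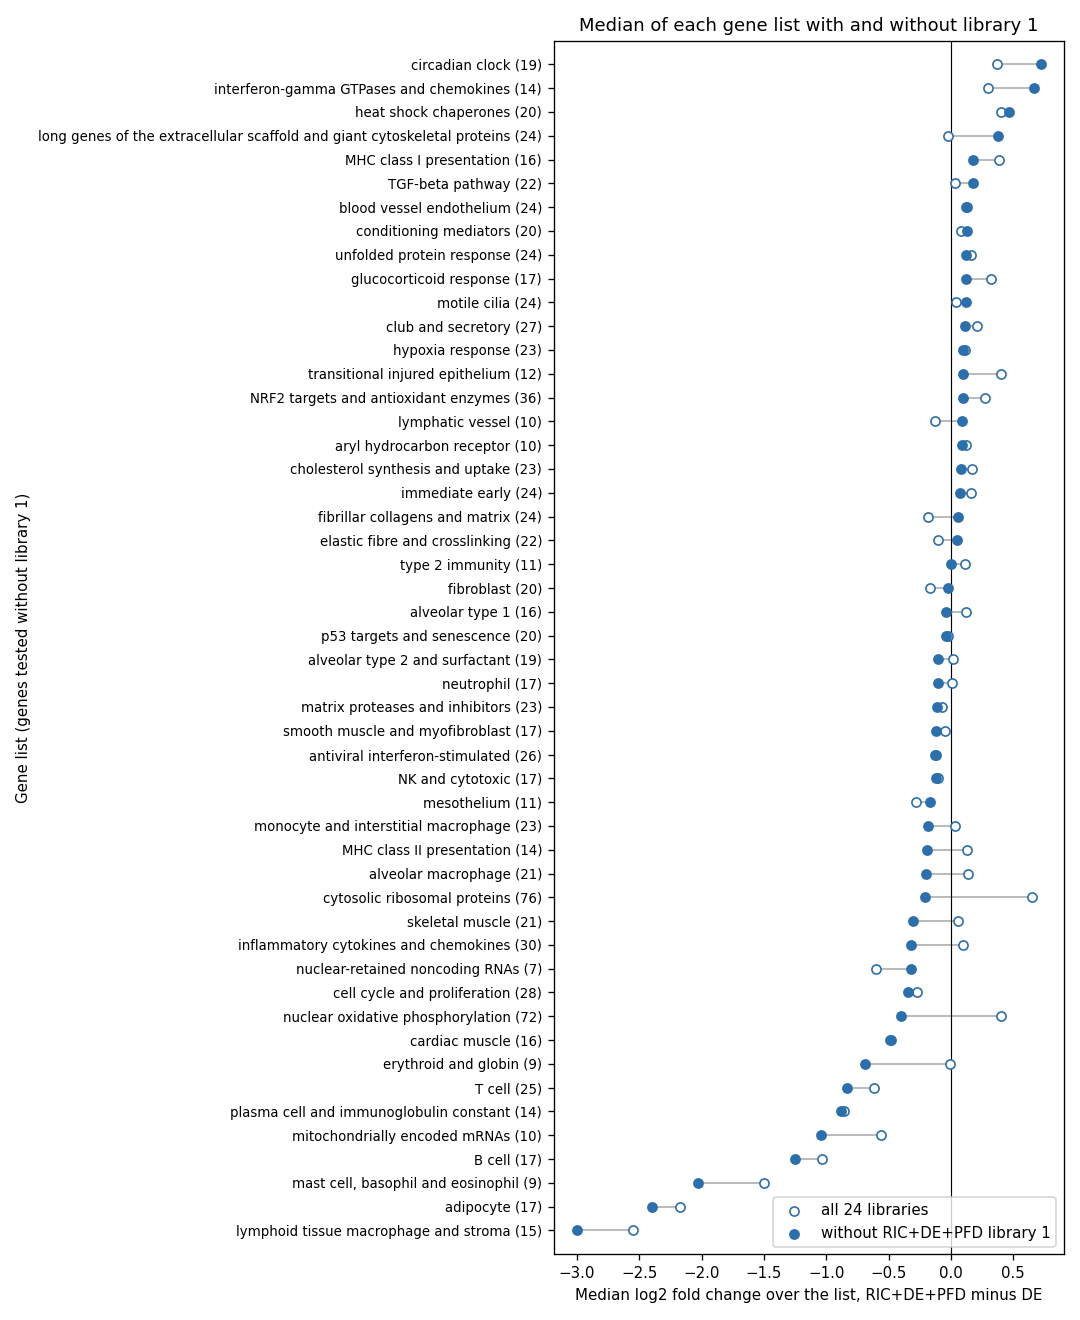
Median log2 fold change of RIC+DE+PFD minus DE over each of 50 gene lists, with genes tested in brackets; open points are the fit of all 24 libraries, filled points the fit without RIC+DE+PFD library 1. The medians run from -3.00 for lymphoid tissue macrophage and stroma genes to 0.72 for circadian clock genes without library 1, and ribosomal protein and oxidative phosphorylation genes change sign between the fits.

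The circadian clock had the highest median of the 50 lists in the fit without library 1, 0.72. With library 1 it was 0.37, and 5 lists lay above it, cytosolic ribosomal proteins first with 0.65. The molecular clock is a feedback loop in which CLOCK (or NPAS2) and BMAL1 (Arntl) bind E-boxes and switch on the Per and Cry genes, whose proteins then block them. PAR-bZIP factors such as TEF act through D-boxes, and REV-ERB receptors act on Arntl through the short element AGGTCA. The sources used here do not give the hour at which tissue was taken. None of the 19 clock genes tested passed in either fit. Without library 1, 7 were higher and 2 lower at an unadjusted p under 0.05 (4 and 1 also without DE 1), beside 7.42% and 6.53% of all genes. In libraries 2 and 3, 10 lay wholly above DE and 2 wholly below, beside 17.7% and 15.4% of all genes.

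Promoter windows of 4 clock genes are shown because their arms of the loop differed in direction between the groups: Cry1, Tef and Per3 had higher values, and Arntl lower, in RIC+DE+PFD 2 and 3. Windows run from 250 bases before to 50 after an annotated start and come from RefSeq on GRCm38.p6, on the gene's strand, and 16 of the 19 list members had 1 or more, in all 21 windows. Both strands were searched for the E-box CACGTG (5 genes, in 6 windows, and 7.15% of all 32851 windows), the D-box TTATGTAA (1 gene, 0.938% of all windows) and AGGTCA (5 genes, 16.3% of all windows). Capitals mark the matches, which describe these letters only: the E-box 60 bases before the start of Cry1 (chr10:85185005-85185304, minus strand) and 127 before a start of Tef (chr15:81802423-81802722, plus strand), 2 D-boxes 205 and 158 bases before the start of Per3 (chr4:151044616-151044915, minus strand), and AGGTCA 31 bases after a start of Arntl (chr7:113207261-113207560, plus strand).
Cry1: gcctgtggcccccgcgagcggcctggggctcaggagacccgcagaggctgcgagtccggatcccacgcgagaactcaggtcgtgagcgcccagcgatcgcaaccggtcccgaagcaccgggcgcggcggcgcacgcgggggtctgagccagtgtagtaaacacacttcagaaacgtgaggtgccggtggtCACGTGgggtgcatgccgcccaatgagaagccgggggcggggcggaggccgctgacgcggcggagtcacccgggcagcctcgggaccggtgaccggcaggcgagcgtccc
Tef: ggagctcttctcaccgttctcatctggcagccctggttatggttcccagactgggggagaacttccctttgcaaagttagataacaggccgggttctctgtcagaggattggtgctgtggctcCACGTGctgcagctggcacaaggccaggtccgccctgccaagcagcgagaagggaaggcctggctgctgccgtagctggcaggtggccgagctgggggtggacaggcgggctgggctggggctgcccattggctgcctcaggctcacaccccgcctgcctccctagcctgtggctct
Per3: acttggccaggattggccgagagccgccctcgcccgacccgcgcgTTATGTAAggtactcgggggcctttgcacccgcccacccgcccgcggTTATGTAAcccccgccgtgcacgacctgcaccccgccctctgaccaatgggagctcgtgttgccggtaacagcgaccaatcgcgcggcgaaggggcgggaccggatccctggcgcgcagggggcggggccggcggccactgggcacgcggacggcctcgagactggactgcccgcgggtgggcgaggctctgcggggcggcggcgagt
Arntl: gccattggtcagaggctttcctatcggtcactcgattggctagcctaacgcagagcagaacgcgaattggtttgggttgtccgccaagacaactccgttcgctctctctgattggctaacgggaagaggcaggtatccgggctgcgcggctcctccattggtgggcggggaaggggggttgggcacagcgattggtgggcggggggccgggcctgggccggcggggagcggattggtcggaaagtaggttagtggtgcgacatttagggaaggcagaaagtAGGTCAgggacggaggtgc

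The negative arm held the largest difference of the list without library 1, that of Per2. Cry1, a repressor of the loop, was at 11.7, 8.20 and 9.65 CPM in DE and at 22.8, 36.5 and 45.1 CPM in RIC+DE+PFD, a difference of 2.03 ± 0.42 without library 1 (edgeR adjusted p = 0.0795), and it was called with October libraries alone (adjusted p = 0.0489). All 3 RIC+DE+PFD libraries lay above DE. Per2 was at 13, 36.5 and 21.2 CPM in DE and at 10.5, 172 and 91.2 CPM (2.48 ± 0.64, adjusted p = 0.125), and Per3 at 26.1, 52.0 and 30.5 CPM and at 15.1, 124 and 71.6 CPM (1.43 ± 0.62, adjusted p = 0.325). For both Per genes library 1 was lowest and library 2 highest of the 6. Tef, a PAR-bZIP factor outside this arm, was at 79.5, 190.0 and 123 CPM in DE and at 98.8, 393 and 274 CPM.

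The positive arm lay the other way. Clock was at 46.5, 50.5 and 54.7 CPM in DE and at 21.8, 34.0 and 34.4 CPM in RIC+DE+PFD, below DE in all 3 libraries (-0.58 ± 0.17 without library 1, edgeR adjusted p = 0.162). Arntl was at 40.6, 12.7 and 25.8 CPM in DE and at 42.3, 5.72 and 11.7 CPM (-1.64 ± 0.74, adjusted p = 0.335), and Npas2 at 12.9, 1.49 and 9.83 CPM and at 13.7, 2.36 and 3.68 CPM. DE 2 and RIC+DE+PFD 2 had low Arntl together with high Per2 and Per3, and DE 1 and RIC+DE+PFD 1 the reverse. Across healthy C libraries Arntl ran from 7.99 to 53.1 CPM and Per2 from 10.8 to 87.8 CPM. The lowest Arntl and the highest Per2 were in C 1, a March library. With C 1 included, libraries of 1 group thus varied as widely in Arntl and Per2 as the differences described here for these genes.

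**Figure D3:**
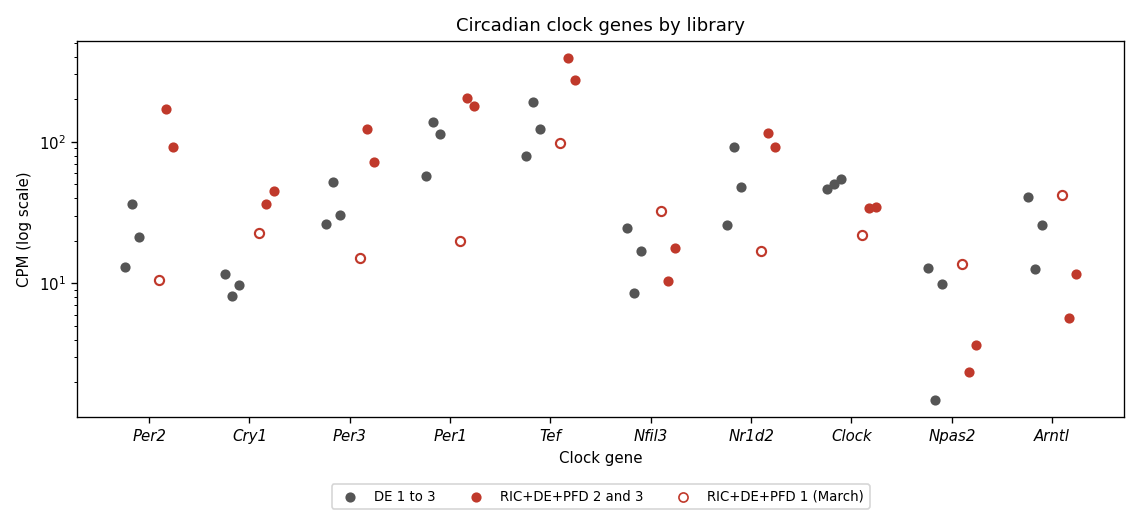
CPM (log axis) of 10 clock genes, 1 point per library; grey points are DE 1 to 3, filled red points RIC+DE+PFD 2 and 3, and open red points RIC+DE+PFD 1. Cry1 lies above DE in all 3 RIC+DE+PFD libraries and Clock below it, whereas Per2, Per3 and Arntl of library 1 lie on the side opposite to libraries 2 and 3.

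Genes of lymphoid tissue and fat had the lowest medians, and here the DE libraries differed among themselves. In bulk lung, fewer cells of a type and less RNA per cell cannot be told apart. Nor can either be told apart from a different share of adjoining fat or lymphoid tissue in the piece, which was not tested. The lymphoid tissue macrophage and stroma list had a median of -3.00 without library 1 (15 tested) and -2.55 with it (13 tested). Without library 1, 11 members were lower at an unadjusted p under 0.05, beside 6.53% of all genes. None passed the adjusted threshold in either fit. The summed level of the 13 genes tested with library 1 was 727, 266 and 453 CPM in DE 1 to 3, 359.9, 216 and 228 CPM in RIC+DE+PFD 1 to 3, and 194 to 233 CPM in C. DE 2 was thus near the other groups and DE 1 and DE 3 above them. Without RIC+DE+PFD 1, leaving out DE 1 as well gave a list median of -1.29, and DE 2 as the only DE library gave -0.15 (13 tested in each).

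Members show the same order. Ccl19, a chemokine of lymph node stroma, was at 24.3, 1.19 and 13.2 CPM in DE and at 2.18, 0.272 and 0.576 CPM in RIC+DE+PFD (-4.95 ± 0.91 without library 1, edgeR adjusted p = 0.0505). Stab2, a scavenger receptor of sinusoidal endothelium, was at 24.1, 2.83 and 9.30 CPM and at 1.54, 1.36 and 1.15 CPM (-3.28 ± 0.61, adjusted p = 0.0505). Cd209b, a lectin of lymphoid tissue macrophages, was at 79.9, 1.34 and 30.5 CPM in DE and at 2.18, 2.54 and 1.84 CPM, and DE 2 was the lowest of the 6. Ccl21a, a chemokine that guides T cells and has near-identical copies, was at 332, 131 and 199 CPM and at 206, 77.9 and 77.7 CPM (-1.52 ± 0.28, edgeR adjusted p = 0.0505). Glycam1, a ligand of L-selectin on lymph node vessels, was at 39.1, 0.298 and 16.8 CPM in DE and at 0, 0.0908 and 0 CPM in RIC+DE+PFD.

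Lymphocyte lists lay lower too. Of 25 T cell genes none was above 0 without library 1 (median -0.83, and -0.62 with it), and of 17 B cell genes 1 was (median -1.25, and -1.03 with it). At an unadjusted p under 0.05 without library 1, 15 and 11 were lower, beside 6.53% of all genes. Without DE 1 these counts were 6 and 3, and with DE 2 as the only DE library 9 of the 25 T cell genes lay above 0. Foxp3, the transcription factor of regulatory T cells, was at 6.12, 1.94 and 2.81 CPM in DE and at 0, 0.636 and 0.345 CPM in RIC+DE+PFD (-2.86 ± 0.57 without library 1, edgeR adjusted p = 0.0650). Icos, a costimulatory receptor of T cells, was at 8.96, 4.77 and 5.79 CPM and at 1.03, 3.00 and 2.53 CPM, and Bank1, a B cell scaffold protein, at 86.0, 37.1 and 37.2 CPM and at 8.72, 12.1 and 23.8 CPM. These 3 genes lay below DE in all RIC+DE+PFD libraries, DE 2 included. Ms4a1, encoding CD20, did so as well, at 60.8, 36.5 and 41.8 CPM in DE and at 21.7, 14.3 and 21.6 CPM (-1.39 ± 0.42, edgeR adjusted p = 0.169). Ighm, the IgM heavy chain, overlapped, at 1436, 218 and 355 CPM in DE and at 188, 327 and 199.7 CPM. Without DE 1 the medians were -0.29 for T cell and -0.58 for B cell genes, and for plasma cell genes 0.09 against -0.88 with it.

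The 17 adipocyte genes had a median of -2.40 without library 1 and -2.17 with it, all below 0; it was -1.15 also without DE 1, and -0.14 with DE 2 as the only DE library. Their summed level was 4547, 547 and 1296 CPM in DE 1 to 3, 770.4, 643 and 345 CPM in RIC+DE+PFD 1 to 3, and 289 to 609 CPM in C. Adipoq, the hormone adiponectin, was at 196, 16.7 and 49.5 CPM in DE and at 24.6, 21.7 and 7.14 CPM. Ucp1, the uncoupling protein of brown fat, had 1201, 9 and 151 counts in DE and 0 in every RIC+DE+PFD library. The DE mean of Ucp1 was at least 172-fold higher than a floor of 3 counts per library in RIC+DE+PFD 2 and 3 (at least 159-fold over all 3). That mean came mostly from DE 1, and DE 2 with 9 counts lay far nearer the floor. With Ucp1 at the bound, the list's median without library 1 was still -2.40. Mast cell, basophil and eosinophil genes followed, with a median of -2.03 over 9 genes (-1.50 with library 1), of -0.73 also without DE 1 and of -0.47 with DE 2 as the only DE library. Tpsb2, a mast cell tryptase, was at 24.5, 2.68 and 9.65 CPM in DE and at 2.05, 0.817 and 0.576 CPM. Among the DE libraries Tpsb2 was again highest in DE 1 and lowest in DE 2.

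**Figure D4:**
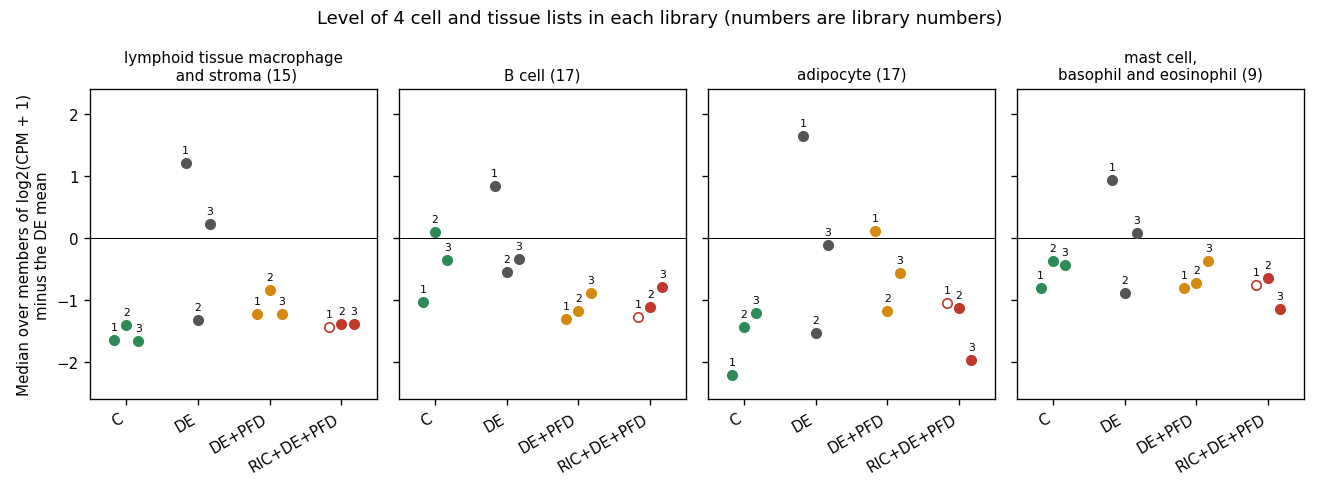
Level of 4 lists in each library of C, DE, DE+PFD and RIC+DE+PFD, as the median over list members of log2(CPM + 1) minus its mean over the DE libraries; members are given in brackets, and the open red point is RIC+DE+PFD 1. DE 1 is the highest library in all 4 panels, and DE 2 lies near RIC+DE+PFD in the lymphoid tissue, adipocyte and mast cell panels.

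Other gene groups set RIC+DE+PFD 1 apart from libraries 2 and 3, and in the first pair the sign of the median turned with it. Cytosolic ribosomal proteins, the protein part of the ribosome, had a median of 0.65 with library 1 and -0.21 without it (76 tested), and nuclear genes of oxidative phosphorylation 0.40 and -0.40 (72 tested). Rpl29 was at 416, 417 and 374 CPM in DE and at 1521, 289 and 309 CPM in RIC+DE+PFD, and Ndufv3, a subunit of complex I, at 120.1, 86.4 and 82.5 CPM and at 247, 56.7 and 60.0 CPM. Library 1 held the highest value of both genes and libraries 2 and 3 the lowest. Of the oxidative phosphorylation genes 50 lay wholly below DE in libraries 2 and 3, beside 15.4% of all genes. Without library 1, 20 were lower at an unadjusted p under 0.05, beside 6.53% of all genes. That count was 3 also without DE 1 (median -0.26) and 9 with GC and length offsets (median -0.27), an alternative added after the values were seen. The ribosomal protein median was -0.22 also without DE 1 and -0.11 with these offsets.

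Mitochondrially encoded mRNAs had medians of -0.56 with library 1 and -1.04 without it. All 10 tested lay wholly below DE in libraries 2 and 3, beside 15.4% of all genes. Without library 1, 8 of them had an unadjusted p under 0.05, beside 6.53% of all genes that were lower, and none passed the adjusted threshold. Those 8 became 2 also without DE 1 (median -0.79) and 1 with GC and length offsets (median -0.66). The mt-Nd2 gene of complex I was at 3511, 2725 and 2299 CPM in DE and at 4052, 1254 and 1066 CPM in RIC+DE+PFD (-1.31 ± 0.39 without library 1, edgeR adjusted p = 0.167). The healthy range was 1385 to 2323 CPM, and the levels of mt-Nd2 in DE 1, DE 2 and RIC+DE+PFD 1 lay above it. DE 3 lay within that range, and RIC+DE+PFD 2 and 3 lay below it. Long genes of the extracellular scaffold and giant cytoskeletal proteins lay the other way, with a median of 0.38 without library 1 and -0.02 with it (24 tested). The median was 0.18 also without RIC+DE+PFD 2, 0.25 also without DE 1 and 0.31 with the offsets. In libraries 2 and 3, 14 lay wholly above DE, beside 17.7% of all genes. Lrp1, an endocytic receptor, was at 281, 199.8 and 299 CPM in DE and at 124, 497 and 427 CPM, and Dync1h1, the dynein heavy chain, at 266, 261 and 299 CPM and at 107, 466 and 379 CPM. The rank correlation of a library's deviation with GC content was 0.355 and 0.264 in RIC+DE+PFD 2 and 3 and 0.206, -0.168 and 0.0443 in DE 1 to 3, and with the offsets 5 genes passed over all genes in place of 7.

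**Figure D5:**
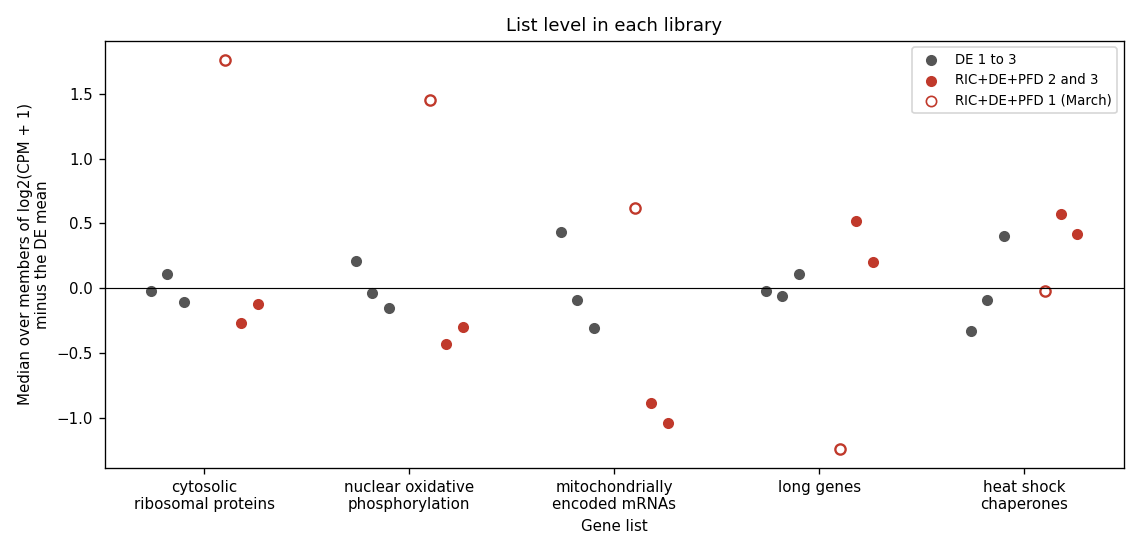
Level of 5 lists in DE 1 to 3 (grey), RIC+DE+PFD 2 and 3 (filled red) and RIC+DE+PFD 1 (open red), as the median over members of log2(CPM + 1) minus its mean over the DE libraries. Library 1 lies at the highest level for ribosomal protein, oxidative phosphorylation and mitochondrial mRNAs and at the lowest for long genes, on the side opposite to libraries 2 and 3 in each.

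Blood vessel endothelium had a median of 0.13 over 24 genes without library 1 (0.00 also without DE 1) and 0.12 with it. Vwf, the von Willebrand factor of endothelium and platelets, was at 413, 434 and 543 CPM in DE and at 184, 809.7 and 767 CPM in RIC+DE+PFD (0.76 ± 0.20 without library 1, edgeR adjusted p = 0.126), and Ace, the angiotensin-converting enzyme of lung capillaries, at 594, 690.4 and 729 CPM and at 279, 1232 and 1065 CPM (0.76 ± 0.17, adjusted p = 0.0984). Emcn, an endothelial sialomucin, was lower in libraries 2 and 3, at 69.4, 91.2 and 81.4 CPM in DE and at 132, 60.4 and 39.3 CPM. For all 3 genes library 1 lay on the other side of DE.

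In the epithelium, surfactant protein C (Sftpc) was at 20245, 29545 and 27342 CPM in DE and at 68041, 24437 and 23241 CPM in RIC+DE+PFD, and the 19 genes of alveolar type 2 cells had a median of -0.10 without library 1 (0.02 with it). Scd1, a fatty acid desaturase of surfactant lipid synthesis, was at 2071, 1134 and 1858 CPM in DE and at 1003, 692 and 738 CPM, below DE in all 3 libraries (-1.25 ± 0.42, edgeR adjusted p = 0.206). Cxcl15, a chemokine of the lung epithelium, was at 1047, 1313 and 1442 CPM in DE and at 3108, 514 and 414 CPM (-1.46 ± 0.47 without library 1, adjusted p = 0.194). Library 1 had the highest level of Cxcl15 of the 6 and libraries 2 and 3 the lowest.

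Enzymes that handle oxidants and inhaled chemicals were mixed. Of 36 NRF2 targets and antioxidant enzymes, 22 lay above 0 without library 1 (median 0.10, and 0.27 with it). At an unadjusted p under 0.05 without library 1, 5 were higher and 1 lower, beside 7.42% and 6.53% of all genes. Gsta3, a glutathione transferase, was at 164, 308 and 216 CPM in DE and at 674, 397 and 474 CPM in RIC+DE+PFD (0.91 ± 0.30 without library 1, edgeR adjusted p = 0.195), and Osgin1, an NRF2 target, at 30.4, 31.1 and 39.5 CPM and at 52.3, 59.2 and 48.0 CPM (0.67 ± 0.21, adjusted p = 0.176). Both lay above DE in all 3 libraries. Fmo2, a flavin monooxygenase of lung, did so in libraries 2 and 3 only, at 398, 755 and 563 CPM in DE and at 371, 1355 and 1261 CPM. Cyp1a1, the target of the aryl hydrocarbon receptor that exhaust particles can induce, was at 8.41, 7.75 and 8.60 CPM in DE and at 1.15, 3.81 and 4.03 CPM (-1.09 ± 1.24, adjusted p = 0.745), while C 1 held 153 CPM and the other C libraries 6.70 and 7.12 CPM.

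Of 20 heat shock chaperones, 19 lay above 0 without library 1, with a median of 0.47 (0.40 with it). Without library 1, 2 were higher at an unadjusted p under 0.05, beside 7.42% of all genes. In libraries 2 and 3, 10 lay wholly above DE, beside 17.7% of all genes. Hsph1, a co-chaperone of HSP70, was at 59.9, 77.3 and 183 CPM in DE and at 46.6, 295 and 189.8 CPM in RIC+DE+PFD (1.18 ± 0.61, edgeR adjusted p = 0.400), and Hspb1, a small heat shock protein, at 143, 146 and 359 CPM and at 357, 389 and 478 CPM. DE 3 lay close to RIC+DE+PFD 3 for Hsph1, and close to RIC+DE+PFD 1 and 2 for Hspb1. Against C the median of the list was 1.07 without library 1, and that of DE against C was already 0.69 in the same fit. The 14 interferon-gamma GTPases and chemokines had a median of 0.67 without library 1 and 0.30 with it, and the median turned to -0.21 also without RIC+DE+PFD 3. In 2 of its genes RIC+DE+PFD 3 lay far above all other libraries of these groups: Gbp5, a guanylate-binding protein, was at 14.9, 12.8 and 13.5 CPM in DE and at 4.49, 17.9 and 56.7 CPM, and Gbp2 at 82.3, 90.3 and 87.9 CPM and at 51.8, 91.6 and 226 CPM. Cxcl9, a chemokine of this list, lay the other way (-1.61 without library 1, and 0.01 also without DE 1).

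The 30 inflammatory cytokines and chemokines had medians of -0.32 without library 1 and 0.10 with it. At an unadjusted p under 0.05 without library 1, 4 were lower and 1 higher, beside 6.53% and 7.42% of all genes. The median was -0.09 also without DE 1 and 0.24 with DE 2 as the only DE library. Of the 28 cell cycle genes 2 lay above 0 without library 1 (median -0.34, and -0.27 with it). Also without DE 1, 9 lay above 0 (median -0.10), and with DE 2 as the only DE library 14 did (median 0.00). Bub1, a kinase of the spindle checkpoint, was at 3.06, 2.68 and 3.86 CPM in DE and at 2.69, 0.908 and 1.04 CPM in RIC+DE+PFD (-1.72 ± 0.40 without library 1, edgeR adjusted p = 0.102). Among nuclear noncoding RNAs, Malat1 was at 1449, 1326 and 1224 CPM in DE and at 169, 549.7 and 817 CPM, and Mir99ahg, host of a microRNA cluster, at 33.0, 33.7 and 36.5 CPM and at 14.2, 11.3 and 20.2 CPM (-1.15 ± 0.30, adjusted p = 0.125). Both were below DE in all 3 libraries. Neat1 lay higher in libraries 2 and 3, at 1058, 1116 and 942 CPM in DE and at 501, 1430.0 and 1669 CPM.

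Setting RIC+DE+PFD against the groups given only 1 intervention tests whether its difference from DE differs from theirs. Against DE+PFD edgeR called 0 genes, both with library 1 (1869 higher, 10.7%, and 1168 lower, 6.68%, at an unadjusted p under 0.05) and without it (837 higher, 4.76%, and 763 lower, 4.34%), while DESeq2 called 138 with library 1. With library 1 kept, leaving out RIC+DE+PFD 3 gave 15 genes and leaving out DE+PFD 3 gave 23, all lower. Against RIC+DE it called 2569 higher (14.7%) and 783 lower (4.48%) with library 1 (3849, 22.0%, and 2504, 14.3%, at an unadjusted p under 0.05), and 0 without it (507 higher, 2.88%, and 831 lower, 4.72%, at an unadjusted p under 0.05). The count with library 1 was 5614 without RIC+DE+PFD 2 and 0 without RIC+DE 1. The RIC+DE libraries all carry March dates, so that the comparison without library 1 rests on the batch term. Against C it called 0 in both fits, with 1940 higher (11.1%) and 1048 lower (5.99%) at an unadjusted p under 0.05 with library 1, and 596 higher (3.39%) and 654 lower (3.72%) without it.

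Placed beside these groups, Cttnbp2 was at 8.39, 9.35 and 11.3 CPM in DE+PFD, 6.41, 5.72 and 6.84 CPM in RIC+DE and 8.42, 11.0 and 11.8 CPM in C, so that the RIC+DE+PFD libraries lay below all of them; the difference from DE+PFD was -1.71 ± 0.28 without library 1 (edgeR adjusted p = 0.0855). Sh3kbp1 was at 42.8, 41.9 and 45.3 CPM in DE+PFD, 38.6, 33.9 and 37.8 CPM in RIC+DE and 38.6, 45.1 and 46.3 CPM in C, likewise above every RIC+DE+PFD library. For both genes RIC+DE+PFD held the lowest 3 values of these 5 groups. Crim1 was at 184, 135 and 93.8 CPM in DE+PFD and 187, 226 and 186 CPM in RIC+DE, ranges that overlap RIC+DE+PFD 2 and 3. That overlap came from March libraries, DE+PFD 1 and those of RIC+DE. The October libraries DE+PFD 2 and DE+PFD 3 lay below RIC+DE+PFD 2 and 3. Cry1 overlapped as well, at 43.4, 39.3 and 16.5 CPM in DE+PFD and 36.6, 42.6 and 21.7 CPM in RIC+DE.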

How the data were processed

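Per the labels' protocols, TRIzol RNA of lung was selected with oligo(dT) for strand-specific libraries. The submitters' processing notes name FastQC 0.12.1, fastp 0.23.4, STAR 2.7.11b and featureCounts, and the build GRCm39. The deposited table holds the authors' unscaled read counts of 78275 genes in 24 libraries. The sources used here do not give the annotation release, strand setting or handling of multiply matching reads, and overlapping and near-identical genes (ribosomal proteins, globins, mitochondrial genes with nuclear copies) carry uncertain counts. Symbols came from a GRCm38 annotation, matched by identifier for 51486 genes with 98.45% of the counts.

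The test on these counts was that of edgeR 4.0.16, run in R 4.3.3 (filterByExpr, TMM, quasi-likelihood, terms for batch and group, Benjamini-Hochberg threshold 0.05), over 24 libraries and over 23, without RIC+DE+PFD 1. The batch is the month of the date in the labels, whose meaning is not given there. The floor for a group at 0 is 3 counts per library. Members and lists were chosen with earlier results of these data known, so lists are given as counts and medians with no test. Named genes were those past the threshold with the smallest p and a mean of at least 1 CPM (the 5 with the smallest p where fewer passed), the 3 smallest p of each list and readout genes of fibrosis and inflammation; other list members are examples picked after their values were seen. Alternatives were DESeq2 1.42.0, other size factors and filters, other batch terms, subsets of libraries, a replicate block, limma 3.58.1 quality weights and each library left out; GC and length offsets and the fit without DE 1 and DE 3 were added after the values were seen. The edgeR fits were also run on counts simulated from the fitted means and spread. Such counts hold no library that stands apart as RIC+DE+PFD 1 does, so they do not test its effect on the calls.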

Additional observations from a re-analysis of the deposited data

How the results depend on the processing

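For RIC+DE+PFD minus DE over all libraries, where edgeR called 0 genes, 69 passed with DESeq2, 347 with no filter on low counts, 41 from October libraries alone, 2 with limma's quality weights and 9 with no batch term. Leaving out 1 library gave 0 to 36. In the fit without RIC+DE+PFD 1, 7 genes became 283 with DESeq2, 13 with its size factors in edgeR, 770 with no filter, 24 when the November library was counted as October, 135 with quality weights, 41 from October libraries alone, and 0 either with no batch term or without DE 1 and DE 3, and leaving out 1 library gave 0 to 42. Against DE+PFD (0 genes), DESeq2 gave 138 and leaving out 1 library 0 to 23. Against RIC+DE (3352 genes), leaving out 1 library gave 0 to 5614. Against C (0 genes), DESeq2 gave 37 and the fit with no batch term 1. The cause of these differences was not tested.

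The replicate number as a block gave 0 genes in both fits against DE and 1665 against RIC+DE. Same-numbered libraries of RIC+DE+PFD and DE showed little shared deviation from their group means (correlations 0.00891, -0.0901 and 0.0262). The RIC+DE+PFD mean includes library 1, which stood apart, so these values cannot exclude a pairing by number. The DE 2 library alone as control turned the sign of Tgfb1 (0.08), Col1a1 (0.36), Col3a1 (0.18), Npas2 (0.99), Nqo1 (-0.16), Cxcl9 (0.96), Mcpt4 (0.02), Cd209b (0.70) and Ighm (0.26), all in the fit without RIC+DE+PFD 1. In the same fit, leaving out 1 library gave -0.30 to 0.05 for Cdh5 (-0.11 with both groups as they stand, and 0.05 without RIC+DE+PFD 3), -0.05 to 0.30 for Nqo1 (0.13, and -0.05 without RIC+DE+PFD 2) and -2.81 to 0.01 for Cxcl9 (-1.61, and 0.01 without DE 1), and Sftpc was -0.12, and 0.02 with GC and length offsets. Of 2119 values of named genes under the alternatives, 1829 kept their direction and side of the threshold, 61 lost a call, 216 gained one and 13 turned sign. Of 1800 list medians, 112 moved by more than the spread between libraries within DE and RIC+DE+PFD. That spread included RIC+DE+PFD 1 also for the fits without it, a wide measure for lists in which library 1 stood apart. Precision is limited by 2 or 3 libraries a group.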
